A study of Mus musculus with 4 samples.

Results

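The Wnt ligand genes encode secreted, lipid-modified proteins that carry signals between neighbouring cells. Of the 55487 genes in the count table, 10 were followed here because their IDs map to Wnt2, Wnt4, Wnt5a, Wnt5b, Wnt6, Wnt7b, Wnt10a, Wnt10b, Wnt11 and Wnt16. The other 9 Wnt ligand genes of the mouse are described more briefly. RNA with poly(A) tails was sequenced from cells of the mouse lower incisor at postnatal day 30, in 4 libraries. The 2 knockout libraries came from mice with floxed Ptip alleles (Ptip f/f) and Sp7-cre, and the 2 control libraries from Ptip f/f mice without Cre, all labelled as strain C57. Sorting by flow cytometry left out cells with CD45, Ter119 or Tie2 on their surface, which mark leukocytes, the erythroid line and endothelium. Cre was driven by the promoter of Sp7, whose protein directs osteoblast and odontoblast differentiation, and the sort did not select for cells with Cre. Because the controls lacked Cre, loss of Ptip and presence of the transgene cannot be told apart. The labels do not say how many animals gave each library, so p-values measure the spread between these libraries, which may be technical in part.

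Wnt proteins bind frizzled receptors together with a co-receptor. With LRP5 or LRP6 as co-receptor the signal stabilises beta-catenin, which enters the nucleus and switches on target genes with TCF and LEF factors. With receptors such as ROR2, and without beta-catenin, Wnt proteins steer cell shape and movement. In developing teeth the dental epithelium and the mesenchyme below it signal to each other through Wnt proteins, and people who lack WNT10A function often miss permanent teeth.

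Total counts were 17770831 to 19142757 in knockouts and 15154246 to 15394782 in controls. Paxip1, the gene of Ptip, had 111 and 71 counts in knockouts, against 407 and 696 in controls (log2 fold change -2.91, SE 0.48, edgeR adjusted p = 0.150). The labels call the tissue dental pulp, but genes of the enamel-forming epithelium were abundant. Ambn, the gene of an enamel matrix protein, had 31002 and 41111 CPM (CPM being the count per 1000000 counts of a library, scaled by TMM factors) in knockouts, against 52583 and 18171 CPM in controls. Of 8 ameloblast genes, 6 had both knockouts below both controls and 0 had both above. Among all tested genes, 24.9% had both below and 25.8% both above. The 2 knockouts differed widely in some of the 8. Amelx had 2394.5 and 80.03 CPM in knockouts, against 7421.5 and 2410 CPM in controls. Enam had 970 and 77.2 CPM in knockouts, against 1413 and 1498 CPM in controls. By contrast, Ambn and Odam were higher in knockout 2 than in knockout 1. The summed level of 12 dental epithelium markers was 353 and 398 CPM in knockouts, against 830 and 401 CPM in controls, with both knockouts above both controls in 1 of 11 tested genes and below in 3, and Sox2 at 0 counts in every library. Dental mesenchyme markers went the other way, with both knockouts above both controls in 8 of 10 tested genes and below in 0, and sums of 4018 and 3960 CPM in knockouts against 1095 and 1371 CPM in controls. In such bulk libraries, fewer cells of a type and less RNA per cell cannot be told apart, and the part of these markers in the ligand values was not tested.

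The 4 listed ligands whose groups differed by more than the controls differed between themselves were Wnt6 and Wnt11, on the higher side in knockouts, and Wnt10b and Wnt2, on the lower side. The DNA just before a transcription start of each is shown to place these genes on the genome and to set their promoters side by side. The sequences are those of RefSeq (GRCm38.p6), read 5′ to 3′ on the strand of the gene and ending at the base before the start. For Wnt2, whose annotated start in GENCODE lies farther out, 140 bases that fall in that transcript are left off, so its window has 110 bases in place of 250. Capitals mark the GC box GGGCGG, the core CTTTG of the TCF and LEF motif and the TATA box TATAAA, where they were found on either strand. Matches of the same motif can overlap and are then counted separately.
Wnt6, chr1:74771642-74771891, plus strand: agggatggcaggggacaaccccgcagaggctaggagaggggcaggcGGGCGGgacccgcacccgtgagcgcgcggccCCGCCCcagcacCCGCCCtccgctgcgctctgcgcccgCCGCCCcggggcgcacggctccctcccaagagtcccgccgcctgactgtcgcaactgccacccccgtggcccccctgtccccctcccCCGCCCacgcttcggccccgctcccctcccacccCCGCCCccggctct
Wnt11, chr7:98834862-98835111, plus strand: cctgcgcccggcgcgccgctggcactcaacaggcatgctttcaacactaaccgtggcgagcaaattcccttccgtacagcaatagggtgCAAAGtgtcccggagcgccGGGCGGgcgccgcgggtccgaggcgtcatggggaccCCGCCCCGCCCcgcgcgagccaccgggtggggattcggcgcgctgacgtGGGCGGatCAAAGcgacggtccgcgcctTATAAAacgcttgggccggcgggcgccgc
Wnt10b, chr15:98778151-98778400, minus strand: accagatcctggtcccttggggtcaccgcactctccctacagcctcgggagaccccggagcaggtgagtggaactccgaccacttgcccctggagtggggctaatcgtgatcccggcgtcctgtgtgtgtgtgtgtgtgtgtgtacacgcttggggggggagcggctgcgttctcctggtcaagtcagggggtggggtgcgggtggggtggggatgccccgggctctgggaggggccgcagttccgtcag
Wnt2, chr6:18030586-18030695, minus strand: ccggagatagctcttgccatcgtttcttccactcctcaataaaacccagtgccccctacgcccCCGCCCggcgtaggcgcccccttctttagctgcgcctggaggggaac

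The Wnt6 window was 79.6% G and C and held 6 GC boxes, and the Wnt11 window was 70.8% G and C with 4 GC boxes, 2 TCF cores and 1 TATA box. Wnt11 has another RefSeq start, not shown, whose window (chr7:98838595-98838844) was 56.8% G and C and held none of the 3 motifs. In the Wnt10b window, at 66.8% G and C, none of the 3 motifs was found, and the shorter Wnt2 window, at 62.7%, held 1 GC box. Among 32544 RefSeq promoters of 250 bases, 33% held a GC box, 48.7% a TCF core and 12.3% a TATA box, and the median G and C content was 52.4%. A match is a run of letters and not a bound site. Promoter entries were matched for 7 of the 10 ligands.

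Levels of different genes were compared as CPM per kilobase of merged exons (RPKM). Wnt10a and Wnt5a led the 10 listed ligands, with means over the 4 libraries of 29.9 ± 13.2 and 18.7 ± 6.58 RPKM (SD, n = 4). Wnt6 came next at 7.98 ± 4.75 RPKM. Then came Wnt5b at 2.45 RPKM, Wnt11 at 1.99, Wnt2 at 1.90, Wnt7b at 0.984, Wnt10b at 0.704, Wnt16 at 0.586 and Wnt4 at 0.392. Wnt6 lay above Wnt5b in all 4 libraries and their ranges did not overlap. The plot of levels by library shows no such gap between Wnt6 and Wnt2, since in control 2 Wnt2 had 4.86 RPKM and Wnt6 4.04 RPKM. For each other pair of neighbours in this order the ranges overlapped, although Wnt5a was above Wnt6 in 4 of 4 libraries. Wnt10a was above Wnt5a in 3 of 4 libraries, and in control 2 Wnt5a was the leading ligand. By group means, Wnt2 ranked 8 in knockouts and 4 in controls, a wider shift than for any other of the 10.

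**Figure D1:**
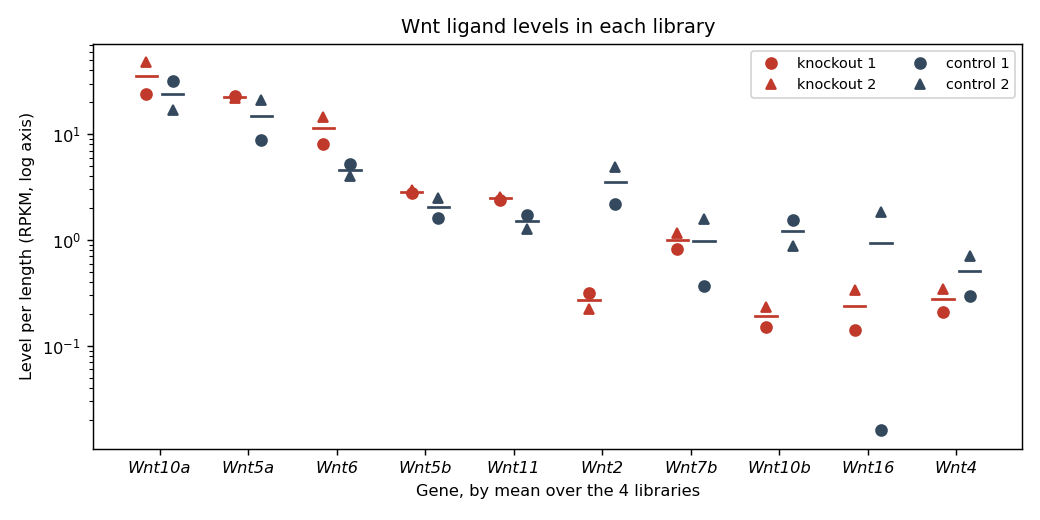
Level of each listed Wnt ligand in RPKM (vertical log axis) in knockout (red, left) and control (dark, right) libraries. Circles are replicate 1, triangles replicate 2 and bars the group means. Wnt10a, Wnt5a and Wnt6 stood above the other 7 ligands in means over the 4 libraries, and Wnt2 and Wnt10b had both knockouts below both controls.

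Summed over the 10 ligands, the level was 61.5 and 92.0 RPKM in knockouts, against 53.2 and 55.6 RPKM in controls. Both knockouts lay above both controls, with means of 76.7 ± 21.6 and 54.4 ± 1.67 RPKM (SD, n = 2 each). Among single genes, 25.8% of all those tested had both knockouts above both controls. Wnt10a, whose groups overlapped, had 23.9 and 47.55 RPKM in knockouts, against 31.5 and 16.8 RPKM in controls. Wnt10a and Wnt5a together made 75.8% and 75.6% of the sum in knockouts, against 75.7% and 68.2% in controls. Their balance differed between libraries of the same group. The ratio of Wnt5a to Wnt10a was 0.953 and 0.463 in knockouts, against 0.281 and 1.25 in controls. Wnt6 added 13.2% and 15.9% in knockouts, against 9.71% and 7.26% in controls. The other 7 ligands made 11.1% and 8.49% in knockouts, against 14.6% and 24.6% in controls. Most of that gap came with Wnt2, which made 0.518% and 0.243% of the sum in knockouts, against 4.11% and 8.73% in controls.

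**Figure D2:**
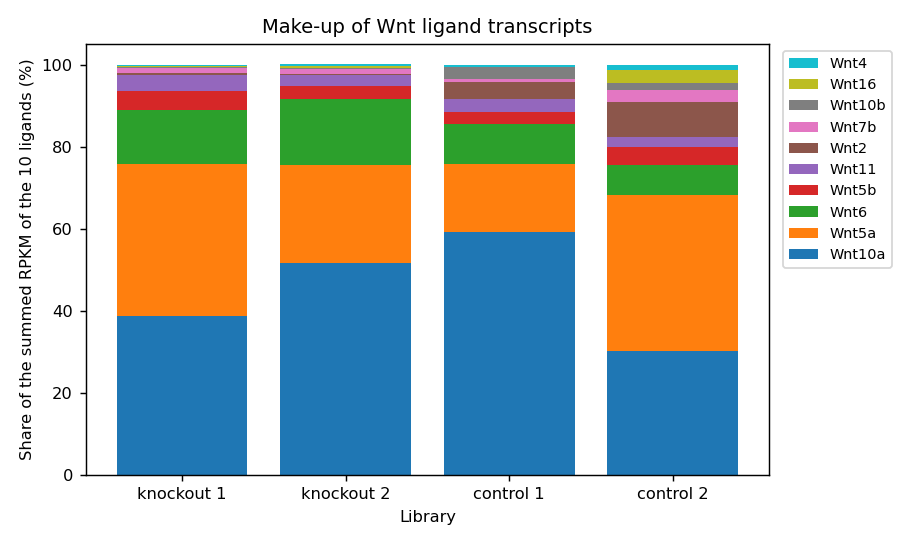
Share of each ligand in the summed RPKM of the 10 listed Wnt ligands (vertical axis, %), with a bar for each library. Wnt10a and Wnt5a made 68.2% to 75.8% of the sum in every library, and the brown Wnt2 band was 0.518% or less in knockouts and 4.11% or more in controls.

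The comparison of knockout with control asks whether ligand transcripts differed with the loss of Ptip, which the series title ties to tooth development through the Wnt pathway. No listed ligand passed edgeR's quasi-likelihood test at an adjusted p of 0.05, over 17128 tested genes of which 0 were called (0%). At an unadjusted p under 0.05, Wnt6 was higher and Wnt2 and Wnt10b were lower, against 7.32% of all tested genes higher (1254) and 9.89% lower (1694). DESeq2 called 1 of the 10, Wnt2, as lower, against 5.69% of its genes (989, beside 472 higher), and limma-voom called 0. In edgeR without the filter on low counts Wnt2 was again the 1 ligand called, against 3.2% of genes called lower. In 6 of the 10, both knockouts lay outside both controls, 4 of them higher and 2 lower. Over all tested genes this held for 50.6%, with 25.8% higher and 24.9% lower, so the share among the ligands was near that of all genes. The median log2 fold change was 0.24 over the 10 ligands and 0.0024 over all tested genes. The ligands' median took the other sign without knockout 2 (-0.094) and without control 1 (-0.27), and was 0.64 without control 2. All 10 had passed the filter on low counts, but Wnt2, Wnt10b, Wnt4 and Wnt16 did not reach 1 CPM in every library. Wnt2 (14 and 9 counts in knockouts) and Wnt10b (10 and 14) passed through their higher counts in controls. Their lower side in knockouts is thus not independent of the filter.

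**Figure D3:**
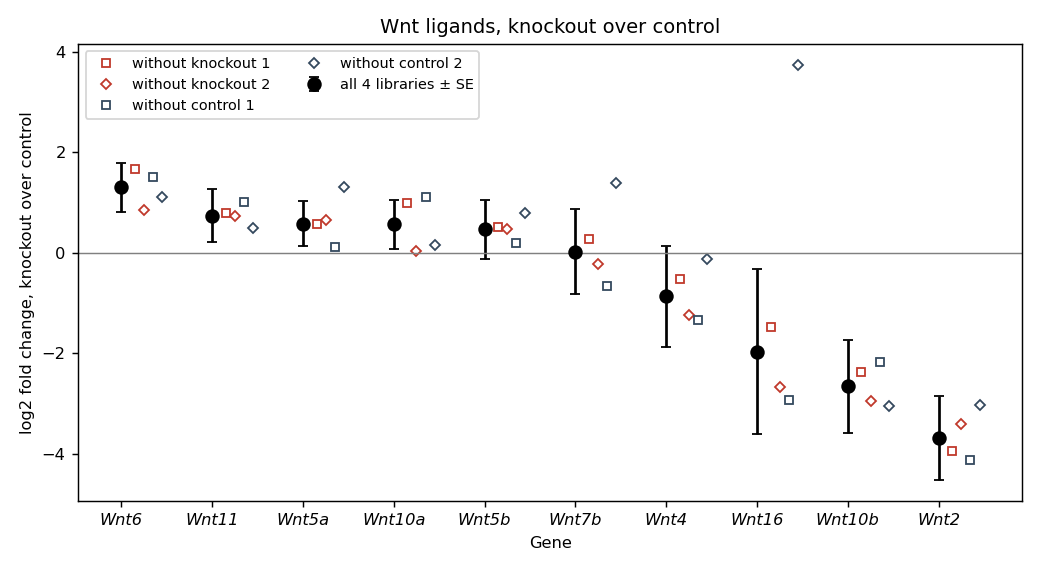
Fitted log2 fold change, knockout over control, of each listed Wnt ligand. Black circles are the fit to all 4 libraries with its SE, and open symbols the fits without 1 library. Wnt6, Wnt11, Wnt10b and Wnt2 kept their side of 0 with values of 0.49 or more in size. They differed more between groups than between controls, so fits without 1 control were unlikely to change their side. Wnt4, Wnt5a, Wnt5b and Wnt10a also kept their side, with smaller values, down to 0.029 for Wnt10a. Wnt7b changed side, and Wnt16 stood at -1.97 with all libraries and at 3.74 without control 2.

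Among the ligands best known for signalling through beta-catenin, Wnt10a had the highest level. This gene (ENSMUSG00000026167) is on the plus strand of chromosome 1, from 74791516 to 74804179 of GRCm38. Its counts were 1149 and 2094 in knockouts, against 1117 and 653 in controls, or 58.9 and 117 CPM against 77.7 and 41.6 CPM. The groups overlapped, since knockout 1 lay between the controls. The log2 fold change was 0.56 (SE 0.48, edgeR adjusted p = 0.616), and it was 0.029 without knockout 2 and 1.10 without control 1.

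Wnt6, a ligand of epithelia, is the upstream neighbour of Wnt10a on the same strand (ENSMUSG00000033227, chromosome 1 from 74771892 to 74785322), and 6193 bases separate them. It had 346 and 572 counts in knockouts, against 163 and 139 in controls. On the CPM scale these were 17.7 and 32.1 in knockouts and 11.3 and 8.85 in controls, with no overlap. Its level was 2.47-fold higher in knockouts (log2 fold change 1.30, SE 0.48, edgeR adjusted p = 0.242). Among the 10 ligands this was the highest positive fold change, and it ranged from 0.86 without knockout 2 to 1.68 without knockout 1. DESeq2 gave an adjusted p of 0.144. The ratio of Wnt6 to Wnt10a per length was 0.339 and 0.308 in knockouts, against 0.164 and 0.240 in controls, so that both ratios were higher in knockouts. Knockout 2 had the highest level of either gene and control 2 the lowest.

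Wnt10b, a relative of Wnt10a that promotes bone formation in mice, is on the minus strand of chromosome 15, from 98770712 to 98778150 (ENSMUSG00000022996). It had few counts, 10 and 14 in knockouts, against 76 and 47 in controls. These were 0.513 and 0.785 CPM in knockouts, below the 5.28 and 2.99 CPM in controls. The level was 6.32-fold lower in knockouts (log2 fold change -2.66, SE 0.92, edgeR adjusted p = 0.221, and 0.0802 in DESeq2). Without 1 library the log2 value ranged from -3.04 to -2.17.

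Wnt2, which acts with Wnt2b to specify the lung in mice, had the largest fold change of the 10 ligands in either direction. The gene (ENSMUSG00000010797) is on the minus strand of chromosome 6, from 17988940 to 18030585. Its counts were 14 and 9 in knockouts, against 71 and 172 in controls. In CPM, the knockouts had 0.718 and 0.504 and the controls 4.94 and 10.9, so the groups lay far apart. Wnt2 was 12.8-fold lower in knockouts (log2 fold change -3.68, SE 0.84, edgeR adjusted p = 0.163). The adjusted p was 0.000847 in DESeq2, 0.0463 without knockout 1 and 0.0345 without control 1, and 0.254 without knockout 2 and 0.186 without control 2. Most markers of leukocytes and erythroid cells also lay lower in knockouts. Both knockouts were below both controls in 8 of 10 tested leukocyte markers and above in 0, against 24.9% of all tested genes below, with sums of 518 and 181 CPM in knockouts against 3194 and 1337 CPM in controls. Ptprc, the gene of CD45, on which positive cells were sorted out, had 764 and 165 counts in knockouts and 2019 and 2263 in controls, and the T cell gene Cd3e had 0 in every library. Both knockouts also lay below both controls in 8 of 9 erythroid markers and above in 0, with sums of 100.3 and 114 CPM in knockouts against 438 and 417 CPM in controls. Wnt2 was lowest in knockout 2 and highest in control 2. The summed Schwann cell markers had the same order, with 323 and 285 CPM in knockouts and 707 and 1153 CPM in controls (1 of 7 genes above, 4 below), and so had the summed endothelial markers, with 648 and 612 CPM in knockouts and 781 and 1253 CPM in controls. Single markers did not all follow it, Mbp being lowest in knockout 1 and Sox10 highest there. Whether any of these cells carried the Wnt2 transcripts was not tested.

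Wnt7b, which takes part in lung and bone formation in mice, had 78 and 102 counts in knockouts, against 26 and 122 in controls. The gene (ENSMUSG00000022382) is on the minus strand of chromosome 15, from 85535437 to 85582473. Both knockouts, at 4.00 and 5.72 CPM, fell between the controls at 1.81 and 7.77 CPM. The log2 fold change was 0.019 (SE 0.85, edgeR adjusted p = 0.995). It took the other sign without control 1 (-0.65) and without knockout 2 (-0.22), and was 1.39 without control 2. Its exons overlap those of the antisense gene AU022754, which had 0 and 3 counts in knockouts and 0 and 0 in controls.

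Among ligands best known for signalling without beta-catenin, Wnt5a, which binds ROR2 and is active in dental mesenchyme, was the most abundant. It is on the plus strand of chromosome 14, from 28504750 to 28527448 (ENSMUSG00000021994). Wnt5a had 3471 and 3071 counts in knockouts, against 995 and 2588 in controls. The knockouts were close to each other at 178 and 172 CPM, and control 2, at 165 CPM, was close to them, whereas control 1 had 69.2 CPM. The log2 fold change of 0.58 (SE 0.46, edgeR adjusted p = 0.580) was 0.11 without control 1 and 1.30 without control 2. Exons of Wnt5a overlap those of the antisense gene Gm2670, which had 22 and 19 counts in knockouts and 26 and 39 in controls. The labelled kit does not mark strand, so reads of such a pair cannot be told apart where they overlap.

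Wnt5b, the closest relative of Wnt5a, is on the minus strand of chromosome 6, from 119432531 to 119544347 (ENSMUSG00000030170). It had 143 and 139 counts in knockouts, against 61 and 105 in controls, or 7.33 and 7.79 CPM against 4.24 and 6.68 CPM. As for Wnt5a, both knockouts were above both controls and control 1 was the lowest library. The log2 fold change was 0.47 (SE 0.59, edgeR adjusted p = 0.753), and 0.20 without control 1. Per length, Wnt5a exceeded Wnt5b by factors of 8.23 and 7.50 in knockouts, against 5.53 and 8.36 in controls.

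Wnt11, which guides cell movement in early embryos and kidney branching in mice, is on the plus strand of chromosome 7, from 98835112 to 98855195 (ENSMUSG00000015957). It had 194 and 190 counts in knockouts, against 103 and 82 in controls. The knockouts, at 9.94 and 10.6 CPM, were above both controls, at 7.16 and 5.22 CPM. The level was 1.66-fold higher in knockouts (log2 fold change 0.73, SE 0.53, edgeR adjusted p = 0.541). Its log2 value was lowest without control 2, at 0.49.

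Wnt4 and Wnt16 act with or without beta-catenin, depending on the cell. Wnt4, needed for kidney tubules in mice, is on the plus strand of chromosome 4, from 137277489 to 137299726 (ENSMUSG00000036856). Its 17 and 26 counts in knockouts and 18 and 47 in controls gave 0.871 and 1.46 CPM against 1.25 and 2.99 CPM. The groups overlapped (log2 fold change -0.86, SE 1.008, edgeR adjusted p = 0.730).

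Wnt16, which sets the thickness of cortical bone in mice, is on the plus strand of chromosome 6, from 22288227 to 22298522 (ENSMUSG00000029671). It had 12 and 26 counts in knockouts, against 1 and 127 in controls. Both knockouts, at 0.615 and 1.46 CPM, lay between control 1 at 0.0695 CPM and control 2 at 8.08 CPM. The difference within the controls was thus far larger than that between groups (log2 fold change -1.97, SE 1.64, edgeR adjusted p = 0.607), and the sign turned to 3.74 without control 2.

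In 6 of the 10 ligands, namely Wnt4, Wnt5a, Wnt5b, Wnt7b, Wnt10a and Wnt16, the ratio between the controls exceeded the fold change between the groups. This held for 52.4% of all tested genes, so the ligands' share was near that of all genes. It was 116-fold for Wnt16 and 4.29-fold for Wnt7b. In the knockouts the highest such ratio was 2.37-fold, for Wnt16, and Wnt5a, Wnt5b and Wnt11 differed by 1.03-fold to 1.07-fold.

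Of the other 9 Wnt ligands, 4 passed the filter and none passed the test. Wnt9a, at 11.4 and 8.13 CPM in knockouts against 12.5 and 19.3 CPM in controls, was the only one of these with counts above 100 in every library (log2 fold change -0.70, SE 0.49, edgeR adjusted p = 0.530). Its mean over the 4 libraries was 3.86 RPKM, between those of the listed ligands Wnt6 and Wnt5b. In control 2, Wnt9a had 5.79 RPKM, above Wnt6 at 4.04 RPKM. Wnt3a had 21 and 35 counts in knockouts, against 174 and 0 in controls, so the libraries of the control group lay at both extremes. Wnt2b had 29 and 0 counts in knockouts, against 3 and 40 in controls. Wnt7a had 10 and 0 counts in knockouts, against 18 and 26 in controls. The remaining 5, Wnt1, Wnt3, Wnt8a, Wnt8b and Wnt9b, had 0 to 14 counts in knockouts and 0 to 17 in controls. Where a library had 0 counts, up to 3 counts, or 0.154 to 0.209 CPM, remain possible from counting error alone.

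The ligands were also set against 172 tested genes of the Wnt and cell marker lists by the shape of their profile over the 4 libraries, as the root-mean-square distance of centred log2 CPM. Nearest to Wnt10a were Pygo2 (0.17), which encodes a nuclear partner of beta-catenin, the claudin gene Cldn10 (0.26) and Bcl9l (0.27), where the median gene was at 0.93. Nearest to Wnt5a were the co-receptor gene Lrp6 (0.091), Tcf7l1 (0.11) and the tendon factor gene Mkx (0.12), with a median of 0.77. The gene nearest to Wnt6 was the receptor gene Fzd7 (0.18), with a median of 0.98. With 4 libraries such likeness is a description only.

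The list of Wnt secretion and modification also held Notum and glypican genes, which act outside the cell. Notum was counted here and not among the secreted antagonists. Both knockouts lay above both controls in 5 of the 10 tested genes of this list and below in 0. Over all tested genes, 25.8% lay above and 24.9% below. The median log2 fold change of the list was 0.65, and DESeq2 called 3 of its 10 genes higher, against 2.72% of all genes in DESeq2. Wls, a membrane protein that ferries Wnt ligands outward, had 768 and 755 CPM in knockouts, against 193 and 263 CPM in controls (log2 fold change 1.74, edgeR adjusted p = 0.152, DESeq2 adjusted p = 0.000970). Notum, which removes the lipid that Wnt proteins need, had 10.2 and 15.0 CPM in knockouts, against 0.973 and 1.78 CPM in controls (3.18, 0.152 and 0.000490 by the same measures). Porcn, which attaches that lipid, had 24.1 and 36.9 CPM in knockouts, against 14.4 and 21.2 CPM in controls. Gpc6, a glypican gene, had 130 and 164 CPM in knockouts, against 42.6 and 70.1 CPM in controls, and the retromer gene Vps29 had 203 and 180 CPM against 121 and 102 CPM. The 2 knockouts were thus above the controls in Wls, as in Wnt5a, Wnt5b, Wnt6 and Wnt11, and below them in Wnt2 and Wnt10b. In the other 4 listed ligands the groups overlapped. Such a separation, in either direction, held for 50.6% of all tested genes.

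Receptor genes, counted the same way and against the same shares of all genes, had 9 of 16 members above the controls and 0 below, with a median log2 fold change of 0.82. Ror2, the receptor of Wnt5a, had 21.01 and 65.1 CPM in knockouts, against 9.73 and 8.85 CPM in controls. The frizzled gene Fzd9 had 6.87 and 27.4 CPM in knockouts, against 1.53 and 1.59 CPM in controls. Fzd7 had 28.8 and 39.3 CPM against 15.1 and 14.6 CPM in controls, and Fzd2 11.5 and 15.6 CPM against 2.36 and 5.73 CPM. DESeq2 called 2 of the receptor genes higher, Fzd9 (adjusted p = 0.000338) and Ror2 (0.00608), against 2.72% of its genes, and edgeR 0.

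Secreted antagonists had 2 of 11 tested members above and 1 below, both smaller shares than the 25.8% and 24.9% of all tested genes. Their median log2 fold change was 0.062, and -0.39 without control 1. DESeq2 called Frzb (adjusted p = 0.00174) and Dkk1 (0.0290) higher, against 2.72% of its genes. Frzb had 195 and 192 CPM in knockouts, against 31.8 and 68.4 CPM in controls, and Dkk1 had 30.03 and 4.65 CPM against 3.27 and 2.86 CPM. Sfrp5 had 2.87 and 1.57 CPM in knockouts, against 4.45 and 6.24 CPM in controls, and Sfrp1 overlapped, with 24.8 and 131 CPM against 16.4 and 46.3 CPM.

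Feedback and target genes had 6 of 15 tested members above and 3 below, beside the same 25.8% and 24.9%. Their median log2 fold change was 0.41, and 0.034 without knockout 2. DESeq2 called Bambi higher (adjusted p = 0.00294) and Lgr5 lower (3.4e-05), against 2.72% of its genes higher and 5.69% lower. Axin2, a target that limits the pathway, had 9.84 and 16.5 CPM in knockouts, against 7.93 and 11.9 CPM in controls, and Lef1 had 99.3 and 44.7 CPM against 270.3 and 88.5 CPM. Both genes overlapped between the groups. Bambi had 1107 and 1287 CPM in knockouts, against 447 and 310.5 CPM in controls, Tcf7 had 30.3 and 36.6 CPM against 15.4 and 11.6 CPM, and Ccnd1 had 110.3 and 127 CPM against 37.0 and 67.6 CPM. Lgr5, a receptor gene and target, went the other way with 15.0 and 5.55 CPM in knockouts, against 46.7 and 126 CPM in controls.

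Intracellular components had 8 of 14 above and 2 below, beside the same 25.8% and 24.9%, with a median log2 fold change of 0.28. DESeq2 called 1 of them, Gsk3b, higher (adjusted p = 0.0421), against 2.72% of its genes. Ctnnb1, the gene of beta-catenin, had 74.6 and 65.2 CPM in knockouts, against 55.1 and 65.1 CPM in controls. Tcf7l2 had 160 and 181 CPM in knockouts, against 79.8 and 75.9 CPM in controls, Gsk3b 62.0 and 55.9 CPM against 17.0 and 27.6 CPM, Dvl3 18.3 and 28.1 CPM against 5.77 and 10.9 CPM, and Bcl9 24.5 and 30.04 CPM against 9.80 and 15.1 CPM. In edgeR 0 of all 17128 tested genes passed the adjusted threshold, so none of these lists' genes did. The ligand fold changes reached lower than those of the secretion, modification and receptor genes, as the plot of the pathway by role shows. The lowest ligands were Wnt2 (-3.68) and Wnt10b (-2.66), which passed the filter through their higher counts in controls. This contrast between lists is thus not independent of the filter. Among the target genes, Lgr5 was also low, at -3.07.

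**Figure D4:**
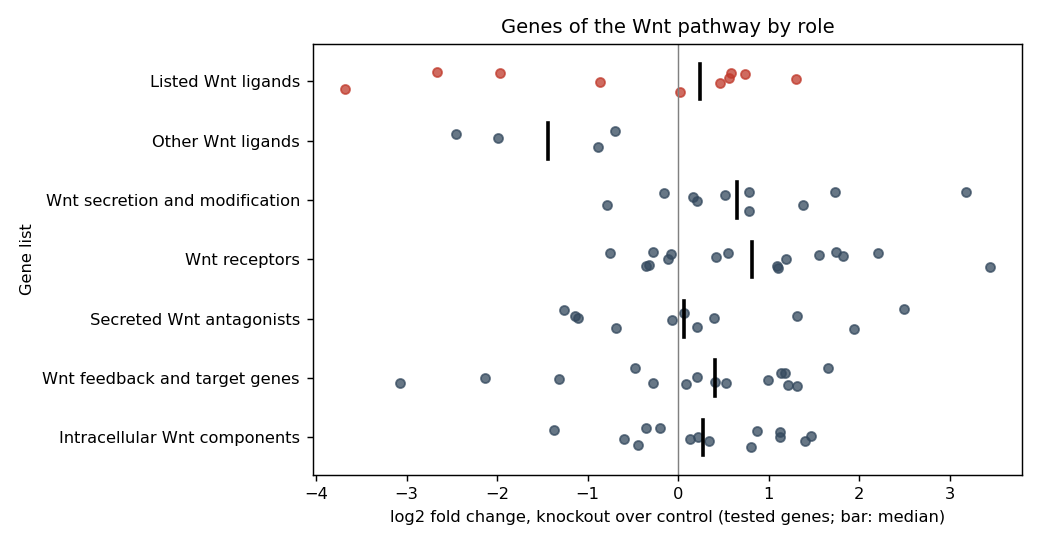
Fitted log2 fold change, knockout over control, of the tested genes of each Wnt list (horizontal axis), with a dot for each gene and a black bar at the median. The listed ligands (red) ran from -3.68 for Wnt2 to 1.30 for Wnt6 around a median of 0.24, and the receptors had a median of 0.82.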

How the data were processed

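The authors deposited 1 table of raw read counts by Ensembl gene for 4 libraries. Per the labels' protocols, oligo-dT priming with template switching and PCR gave the cDNA, which a transposase kit fragmented. Such libraries mark neither strand nor molecules, so counting intervals cover counting error only. The build was GRCm38 and the tools featureCounts 2.0.1, Bowtie2 2.3.5.1 and Trim Galore 0.6.6, per the submitters' processing notes. For annotation, strand setting and reads with several matches, the choice is not given in the sources used here. Symbols, coordinates and merged exon lengths came from GENCODE M21, in which 55227 of 55487 IDs were found.

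Groups came from sample titles. Within groups, neither library was a copy of the other, with a chi-square per gene of 86.7 in knockouts and 147 in controls. The test was edgeR 4.0.16 (quasi-likelihood F-test, TMM, filterByExpr, genotype as the only term, two-sided, Benjamini-Hochberg over 17128 genes, threshold 0.05). The test was also run on simulated counts. These had less spread between libraries than the data, and only genes above a minimum level were changed in them. That run thus does not show how well the test finds changes in these data. The biological coefficient of variation was 49.2%. The SE is the absolute log2 fold change divided by the square root of F. CPM and RPKM use TMM-scaled library sizes. DESeq2 1.42.0, limma-voom (limma 3.58.1), other scalings and filters, a replicate block and fits without 1 library were alternatives. The members and gene lists were chosen with earlier results of these data known. Named in each companion list were the 4 genes with the smallest edgeR p, with Wls, Porcn, Axin2, Lef1 and Ctnnb1 added; likeness was sought for the 3 ligands with the highest level per length, after adding 0.5 to CPM. Part of the likeness result for Wnt6 is not reported here. The 4 ligands whose promoters are shown were chosen after their values were seen.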

Additional observations from a re-analysis of the deposited data

How the results depend on the processing

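Over 96 fold changes of the 10 ligands under the alternatives, 88 kept their direction and stayed short of the threshold, 4 (all Wnt2) passed it and 4 reversed. The reversed ones were Wnt7b at -0.054 with the stricter filter, -0.22 without knockout 2 and -0.65 without control 1, and Wnt16 at 3.74 without control 2; with 1 library left out Wnt7b reached 1.39 and Wnt16 -2.94 at the other end. The cause was not tested. Ligands called lower numbered 0 in the edgeR test, 1 in DESeq2, 1 without the low-count filter and 0 to 1 with 1 library left out; none was called higher under any alternative. The stricter filter left 6 ligands. Genes called higher and lower were 449 and 1005 without the filter, 55 and 138 with the stricter filter, 472 and 989 in DESeq2, and 0 to 215 and 0 to 703 with 1 library left out. Without the filter the prior degrees of freedom were infinite, so that a gene's own spread did not enter its p. With the replicate block, edgeR called 59 higher and 185 lower genes and 0 ligands; the labels name no pairing behind the numbers, and deviations of same-numbered libraries correlated at 0.19 across genes.

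With 1 library left out, ligands outside the other group numbered 4 to 6 higher and 2 to 5 lower. Medians of log2 fold changes ranged from -0.27 (without control 1) to 0.64 (without control 2) for the listed ligands, -3.10 to -1.35 for the other ligands, 0.42 to 0.92 for secretion, 0.54 to 1.16 for receptors, -0.39 to 0.76 for antagonists, 0.034 to 0.78 for feedback and targets and 0.27 to 0.48 for intracellular components. A fit without 1 library assumes that the lone library of its group varies like the others. By the longest transcript, Wnt11 had 2.39 RPKM in place of 1.99 by merged exons, and the order of the 10 ligands was the same. Counts of 1 to 26 in some libraries limit Wnt2, Wnt4, Wnt10b and Wnt16.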

Other observations

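Around Wnt6 and Wnt10a on chromosome 1, the protein-coding genes within 100 kb on either side were read as well. Cyp27a1, which encodes a sterol hydroxylase and lies upstream of Wnt6, had 33.5 and 31.0 CPM in knockouts, against 18.8 and 21.3 CPM in controls (log2 fold change 0.68, SE 0.37, edgeR adjusted p = 0.412). Both knockouts were above both controls, as for Wnt6. Prkag3, Cdk5r2, Fev and Cryba2 had 0 to 21 counts in knockouts and 0 to 11 in controls. On chromosome 15, Wnt1 lies 11.7 kb from Wnt10b and had 5 and 4 counts in knockouts, against 0 and 0 in controls. Among other marker lists, both knockouts lay above both controls in 5 of 12 odontoblast genes and below in 4, and in 2 and 4 of 8 periodontal ligament and tendon genes. For endothelial genes this was 0 above and 5 below of 10, and for pericyte and smooth muscle genes 0 and 3 of 8, where all tested genes gave 25.8% above and 24.9% below.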
